A study of Mus musculus with 25 samples.

Results

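Lung gene expression of calorie-restricted C57BL/6 mice, an inbred laboratory strain, was compared between the third and the fourth day of restriction. The 4 arrays were chosen by their titles alone: the 2 at 72 h and the 2 at 96 h of calorie restriction (CR), of 24 arrays in groups and 25 in the whole series. In both groups food had been reduced by 2/3, and the only labelled difference was the time after the onset of restriction at which the lungs were taken. The labelled hours put both groups at the same time of day, and their age and sex are not given in the sources used here. The other groups, used here to place each level, were CR for 2, 4, 12, 24 and 48 h (2 arrays each) and fed mice at 0 h (4 arrays, numbers 1 and 2) and at 2, 4 and 12 h (2 arrays each). The labels of the fed mice call them always fed yet repeat the wording of the 2/3 reduction, and which holds cannot be settled from them. Each group carries the letters a and b, which may be different animals or repeat arrays of 1 RNA. The p-values therefore measure the spread between arrays, which may be technical.

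Food restriction raises circulating glucocorticoids, hormones of the adrenal cortex that switch on genes through the glucocorticoid receptor. It also lowers body temperature in mice, to which heat shock genes and cold-inducible RNA-binding proteins respond in opposite directions. Cyp1a1, a cytochrome P450 that oxidizes aromatic compounds, is the best known target of the aryl hydrocarbon receptor (AHR), and the lung is one of the tissues in which it can be strongly induced. Tiparp, an ADP-ribosyltransferase that restrains this receptor, and Cyp1b1 are other targets of it. Whether any of these pathways was active was not measured here: the arrays report RNA levels.

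Promoter sequences are shown for 4 genes, of which Cyp1a1 alone was called between the days. They are from RefSeq (GRCm38.p6), each read 5′ to 3′ on the strand of the gene. Cyp1a1 (chr9:57697363-57697612, plus strand) and Tiparp (chr3:65528197-65528446, plus strand) were both at their highest on the 72 h arrays. Hspa1b (chr17:34959239-34959488, minus strand), which encodes an inducible Hsp70, and Chordc1 (chr9:18292017-18292286, plus strand), which encodes an Hsp90 co-chaperone, belong to the heat shock group. The stretches hold the 250 bases before the start site, and for Chordc1 also the 20 bases after it. Capitals mark GCGTG, the core of the AHR response element, on either strand in the first pair, and the heat shock motif GAANNTTC in the second pair. These motifs do not overlap each other.
Cyp1a1: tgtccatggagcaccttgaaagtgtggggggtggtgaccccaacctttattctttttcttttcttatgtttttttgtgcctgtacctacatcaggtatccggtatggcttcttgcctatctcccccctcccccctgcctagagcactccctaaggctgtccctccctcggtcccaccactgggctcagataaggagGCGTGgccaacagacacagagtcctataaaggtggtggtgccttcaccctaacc
Tiparp: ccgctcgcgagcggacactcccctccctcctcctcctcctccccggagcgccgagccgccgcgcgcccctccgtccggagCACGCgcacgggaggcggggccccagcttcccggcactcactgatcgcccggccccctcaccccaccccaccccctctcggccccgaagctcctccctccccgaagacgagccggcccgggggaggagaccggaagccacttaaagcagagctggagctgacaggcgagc
Hspa1b: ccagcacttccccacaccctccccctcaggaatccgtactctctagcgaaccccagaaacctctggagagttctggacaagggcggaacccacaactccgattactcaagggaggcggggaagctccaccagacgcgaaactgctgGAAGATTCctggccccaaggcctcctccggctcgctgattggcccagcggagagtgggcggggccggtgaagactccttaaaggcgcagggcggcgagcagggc
Chordc1: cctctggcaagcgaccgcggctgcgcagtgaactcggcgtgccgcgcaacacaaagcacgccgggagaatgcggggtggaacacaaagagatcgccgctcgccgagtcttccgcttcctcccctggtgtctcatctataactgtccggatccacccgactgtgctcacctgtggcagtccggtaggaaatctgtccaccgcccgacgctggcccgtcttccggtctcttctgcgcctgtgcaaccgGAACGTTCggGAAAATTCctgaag

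In windows of 300 bases, from 250 before to 50 after the start site, GCGTG was found in 32.4% of 32851 promoters and GAANNTTC in 7.86%. Cyp1a1 had 1 match, with its first base at -54 from the start site, Tiparp had 1 at -170 and Cyp1b1 had 1 at -76. Hspa1b had 1 match of the heat shock motif at -104, Chordc1 had 2, at -4 and 7, and Hsph1 had 1 after its start site. Dnajb1 and Hspa4 had 0 in this window. A match is a description of these letters and not a measured binding site.

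Between 72 h and 96 h, 2 of 7440 probe sets (hereafter probes) differed at a Benjamini-Hochberg adjusted p under 0.05 (limma), a share of 0.0269%. Cyp1a1 was lower at 96 h and Zfp787 higher, each being 0.0134% of the probes tested. At an unadjusted p under 0.05 there were 310 probes (4.17%). The next adjusted p after the 2 called was 0.0983. Leaving out array a at 72 h left 1 call, Cyp1a1, and leaving out array b at 96 h gave 4, Cyp1a1, Ece1, Hsph1 and Myl1. The standard error (SE) of a log2 difference was 0.24 at the median. The 95% confidence interval lay within 2-fold in either direction for 5846 probes (78.6%) and within 1.5-fold for 2735 (36.8%). For a probe outside these counts, a difference of that size was not excluded with 2 arrays a group. Over 5706 genes, each read from its brightest probe, the median log2 difference was -0.01. Both 96 h arrays lay above both 72 h arrays for 847 genes (14.8%) and below both for 964 (16.9%), and these shares are the background for every count of genes below.

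The days differed from each other about as much as their own arrays did. The median absolute log2 difference across probes was 0.187 between the 2 arrays at 72 h (r = 0.973) and 0.281 between the 2 at 96 h (r = 0.950). Across days the 4 pairs had 0.212 to 0.241 (r = 0.959 to 0.965). Over all groups the a and b arrays differed by 0.148 (fed 4 h) to 0.281 (CR 96 h), so by this measure the 96 h pair was the most unequal of the 12 pairs. The 3′ to 5′ ratio of Gapdh, a sign of RNA quality, was 1.38 and 1.21 at 72 h and 1.29 and 1.24 at 96 h, and that of actin was 1.71 and 1.63 against 1.79 and 1.80. The deposited medians were 298.3 to 341.2 over the 24 arrays, and the highest signals of the 4 arrays were 32154 to 41374. They shared this lower signal range, up to 54315, with CR 4 h, fed 2 h, fed 4 h and fed 0 h number 2, while the highest signal of the other 12 arrays was at least 74440. A level set against a group of the other range therefore compares arrays that differ in this as well.

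**Figure D1:**
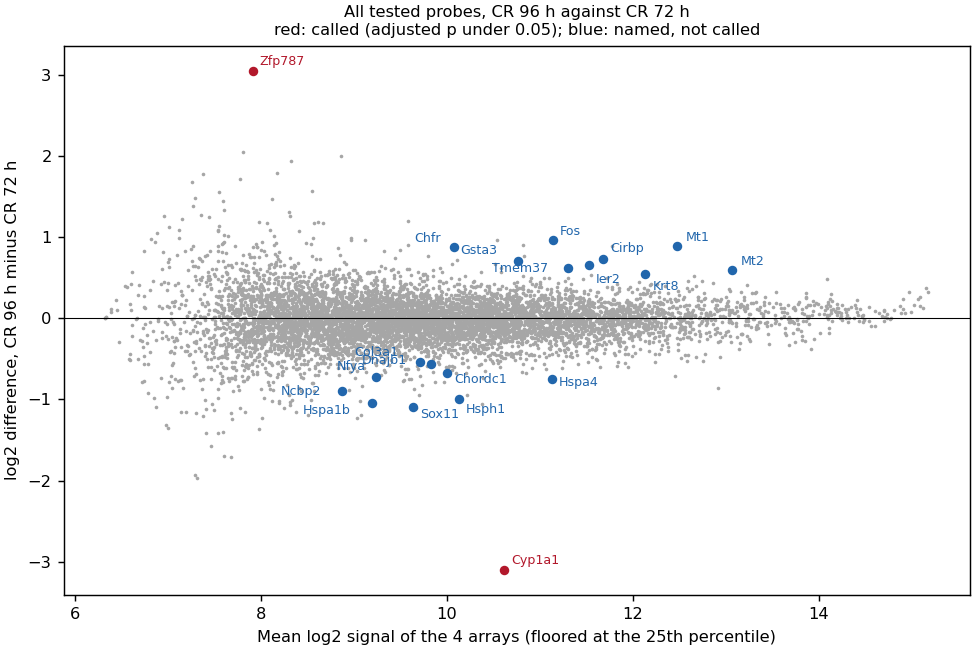
Each point is 1 of 7440 probes, with the mean log2 signal of the 4 arrays on the x axis and the log2 difference, 96 h minus 72 h, on the y axis. The 2 called probes, red, lie at 3.05 (Zfp787) and -3.10 (Cyp1a1), and the blue probes have the smallest p of those not called with groups that do not overlap.

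Cyp1a1 fell 8.56-fold from 72 h to 96 h (95% confidence interval 5.76 to 12.7; log2 -3.10 ± 0.27 SE; adjusted p = 4.0e-06). Its signal was 6069 and 3480 on the 72 h arrays and 486 and 592 on the 96 h arrays. The groups were far apart, and both 72 h arrays also lay above each of the 22 other arrays. The group means elsewhere were 1658 at CR 2 h, 1458 and 746 in fed 0 h numbers 1 and 2, 1413 at CR 12 h, 1353 at fed 2 h, 1166 at CR 4 h, 1081 at fed 4 h, 929 at fed 12 h, 626 at CR 24 h and 317 at CR 48 h. The 96 h level lay between those of CR 48 h (424 and 210) and CR 24 h (589 and 663), which are of the higher signal range. Among the groups of its own range 96 h had the lowest mean, 539, below 746 in fed 0 h number 2, and 72 h the highest. The call was kept without any 1 of the 4 arrays (adjusted p 4.9e-06 to 0.000414), with log2 differences of -3.50 to -2.70. It was kept in a fit of the 12 arrays of the lower signal range (adjusted p = 8.5e-05) and lost when only the 4 arrays were fitted (adjusted p = 0.0974). A second Cyp1a1 probe, at 25.2 to 271 on all 24 arrays, was too dim to be tested.

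Tiparp, named after its values were seen, was also highest at 72 h. Its signal was 1992 and 1856 at 72 h and 996 and 855 at 96 h, so the groups did not overlap, but the difference did not pass (log2 -1.06, adjusted p = 0.968). The means of the other groups were 335 to 833, and both 72 h arrays lay above the other 22. Cyp1b1, also named afterwards, was at 779 and 573 against 381 and 422 (log2 -0.73, adjusted p = 1). The 42 measured genes of antioxidant and xenobiotic metabolism, Cyp1a1 included, had a median log2 difference of 0.07, with 1 called lower and 0 higher. Of these 12 had both 96 h arrays above and 6 below the 72 h arrays. Gsta3, a glutathione S-transferase, was at 1265 and 1471 against 2465 and 2016 (log2 0.71, adjusted p = 0.323). Gstm2, another of that family, was at 1254 and 5300 at 72 h and at 4923 and 4664 at 96 h, so that its value rested on array a at 72 h. Without that array its log2 difference was -0.15, and without array b at 72 h it was 1.93 and passed (adjusted p = 4.9e-06).

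**Figure D2:**
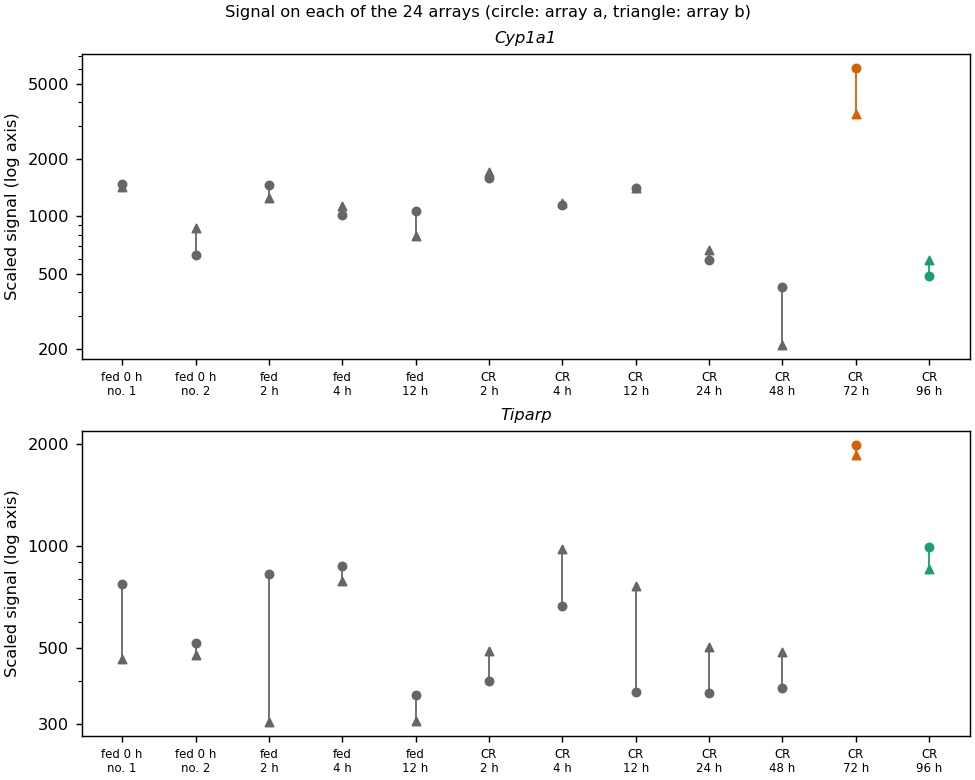
Scaled signal of Cyp1a1 (top) and Tiparp (bottom) on each of the 24 arrays, on a log axis, with the 12 groups on the x axis, array a as a circle and array b as a triangle, 72 h in orange and 96 h in green. The 72 h arrays lie above all others for both genes, for Cyp1a1 at 6069 and 3480 and for Tiparp at 1992 and 1856.

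Zfp787, which encodes a zinc finger protein, was the only probe called higher. Its signal was 58 and 87 at 72 h and 864 and 556 at 96 h. Array a at 72 h was below the floor of 80.37 that was set for dim signals, so the fold is a lower bound, at least 8.29-fold higher (fitted interval 3.90 to 17.6 at 95%, adjusted p = 0.0416). The other groups had means of 271 to 735, and both 72 h arrays lay below all 22 others. The log2 difference was 3.05 in the main fit, 2.99 and 3.11 without arrays a and b at 72 h, and 2.73 and 3.37 without arrays a and b at 96 h. Its size thus did not rest on 1 array. The call was lost in each of these fits, which leave 1 array in a group. Of the 18 alternatives tried, 6 kept the call and 12 ended it. Besides the 4 arrays left out in turn, these were quantile normalization (adjusted p = 0.0647), no filter (0.190), no intensity trend (0.212), robust variance (0.0801), the fed 0 h numbers pooled (0.0844), the 14 CR arrays alone (0.110), the 4 arrays alone (0.145) and the letter as a block (0.0681). A second Zfp787 probe was at 525 and 259 against 438 and 354 (log2 0.10, adjusted p = 1), and another was too dim to be tested, so the probes of this gene disagree.

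Of the 17 measured heat shock and cold-inducible genes 0 passed. Both 96 h arrays lay below both 72 h arrays for 8 of them and above for 1, Cirbp, with a median log2 difference of -0.29 (-0.01 over all genes). The median was -0.50 to -0.29 in each single pair of a 96 h and a 72 h array. Hsph1, an Hsp110 chaperone, was at 1406 and 1774 at 72 h and at 661 and 955 at 96 h (log2 -0.99 ± 0.20 SE, adjusted p = 0.111). Both of its 96 h arrays were below both 72 h arrays. Of 18 alternatives it passed in 1, without array b at 96 h (log2 -1.26), and not in 17. The log2 difference was -0.73 without array a at 96 h, and -1.16 and -0.82 without arrays a and b at 72 h. Hspa1b was at 724 and 977 against 321 and 518 (log2 -1.05 ± 0.28 SE, adjusted p = 0.422). Its near-identical copy Hspa1a was at 716 and 820 against 630 and 772, with groups that overlap, and signals of these copies can be mixed. Dnajb1, the Hsp40 partner of Hsp70, was at 1083 and 1126 against 786 and 707 (adjusted p = 0.422). Hspa4, another Hsp110 family member, was at 2730 and 3077 against 1793 and 1661 (log2 -0.75, adjusted p = 0.434), but 2 dimmer probes of it gave log2 differences of -0.16 and 0.16.

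Among the rest, the constitutive Hsp70 Hspa8 was at 6636 and 5057 against 4445 and 4126, and the mitochondrial chaperonin Hspd1 at 6265 and 5941 against 5102 and 4200. For each of these 2 the groups did not overlap, with log2 differences of -0.44 and -0.40. Chordc1 was at 1260 and 1323 against 859 and 767 (log2 -0.67, adjusted p = 0.157) on 1 probe and at -0.58 on its brighter one. Hsp90aa1, the inducible Hsp90, was at 5221 and 6583 against 4180 and 5376, with groups that overlap. Cirbp, the cold-inducible RNA-binding protein, was at 2607 and 2497 at 72 h and 4224 and 4241 at 96 h (log2 0.73 ± 0.15 SE, adjusted p = 0.111). Its 96 h arrays lay above all 22 others, with other group means of 1074 (fed 12 h) to 3298 (CR 24 h). The 96 h mean of Hsph1, 808, was the lowest of the 12. The groups of the same signal range had 1017 at fed 4 h, 1022 at fed 2 h, 1043 at CR 4 h and 1739 at fed 0 h number 2, and those of the higher range 887 (fed 0 h number 1) to 2696 (fed 12 h). Both 72 h arrays of Hsph1 lay above the means of fed 4 h, fed 2 h and CR 4 h, and on either side of that of fed 0 h number 2.

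**Figure D3:**
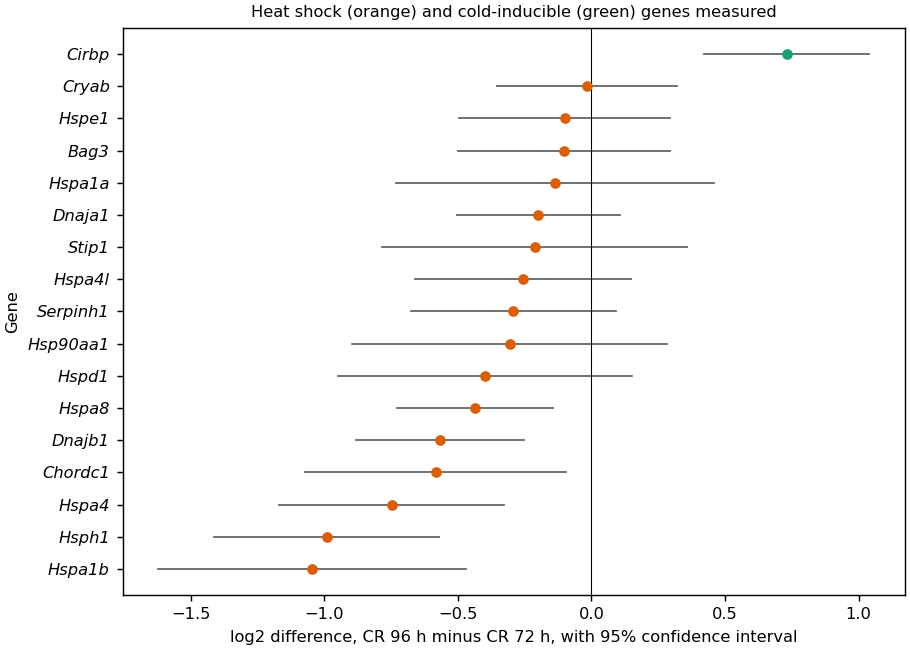
Log2 difference, 96 h minus 72 h, of the 17 heat shock (orange) and cold-inducible (green) genes measured, with 95% confidence intervals from the limma fit. The points run from -1.05 (Hspa1b) to 0.73 (Cirbp), and 0 genes passed the adjusted threshold.

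Immediate early genes are transcribed within minutes of a stimulus. They and genes induced by glucocorticoids had both 96 h arrays above more often than below, without a call. The days overlapped for 13 of the former and 14 of the latter. Both lists also had a higher median at 48 h than at 24 h, as given below. Of 27 immediate early genes 11 had both 96 h arrays above and 3 below, with a median log2 difference of 0.17 and 0 called. Fos, a subunit of the AP-1 transcription factor, was at 1485 and 1758 against 3222 and 3078 (log2 0.96 ± 0.20 SE, adjusted p = 0.111). Ier2, another immediate early gene, was at 2377 and 2328 against 3553 and 3850 (log2 0.65 ± 0.12 SE, adjusted p = 0.0983). For both genes the 96 h arrays were above all 22 others: the next highest group mean was 1621 for Fos, at 72 h itself, and 2893 for Ier2, at fed 4 h. Nr4a1, an orphan nuclear receptor, was at 471 and 671 against 810 and 1369, and Egr1, a zinc finger transcription factor, at 487 and 597 against 926 and 1016. Dusp6, a phosphatase of the ERK pathway, and Rhob, a small GTPase, had both 96 h arrays below, at 3073 and 3067 against 2536 and 2445 and at 10248 and 11455 against 8723 and 9181.

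Of 26 glucocorticoid-response genes 0 passed, 11 had both 96 h arrays above and 1 below, and the median log2 difference was 0.14 (0.09 to 0.22 in the single pairs). The metallothioneins, metal-binding proteins, led the list. Mt2 was at 6749 and 7240 at 72 h and 10078 and 10993 at 96 h (log2 0.59 ± 0.12 SE, adjusted p = 0.111). Mt1 was at 4121 and 4228 against 6939 and 8600 (log2 0.89 ± 0.19 SE, adjusted p = 0.141), though 1 array at CR 48 h and 1 at CR 12 h came close to its 96 h values. Errfi1, an inhibitor of the EGF receptor, was at 7840 and 8839 against 10475 and 11691, and Nfkbia, the NF-kappaB inhibitor, at 6205 and 6657 against 8377 and 8997. Sgk1, a hormone-induced kinase, was at 5143 and 5401 against 7043 and 7495. Their adjusted p was 0.973, 0.973 and 1. Tat, tyrosine aminotransferase, was at 201 and 211 against 409 and 595. Fkbp4, a co-chaperone of steroid receptors, was at 5010 and 4584 against 4318 and 2782, the 1 gene with both 96 h arrays below. Fkbp5 (3530 and 4450 against 5132 and 4348), Per1 (1368 and 1431 against 1206 and 2371) and Zbtb16 (8151 and 9171 against 5538 and 9152), other targets of the receptor, overlapped.

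Set against the other 22 arrays instead of 72 h alone, 11 of these 26 genes had both 96 h arrays above every other array: Cdkn1a, Cebpd, Ddit4, Dusp1, Errfi1, Lcn2, Mt1, Mt2, Nfkbia, Sgk1 and Tat. Over all genes this held for 110 of 5706 (1.93%), and both 96 h arrays were below every other array for 24 (0.421%). At 72 h the number above every other array was 38 (0.666%), with 0 of the 26. Of the immediate early genes 5 of 27 topped the series at 96 h, Dusp1, Fos, Ier2, Junb and Nr4a1. Ddit4, Sesn1, Sqstm1 and Txnip did so among 23 FOXO, atrophy and autophagy genes. The lists share members, so these counts are not separate. Of the glucocorticoid-response genes, Dusp1 is also an immediate early gene here, Ddit4 also a FOXO-list gene and Lcn2 also a neutrophil gene. Outside the lists, Rasd1, a dexamethasone-induced Ras protein, Il1r2, a decoy receptor for interleukin-1, and Socs3, an inhibitor of cytokine signalling, also topped it, and were named after their values were seen. These are positions in an order of arrays, with no test, and the 96 h step from 72 h did not pass for any of these genes.

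**Figure D4:**
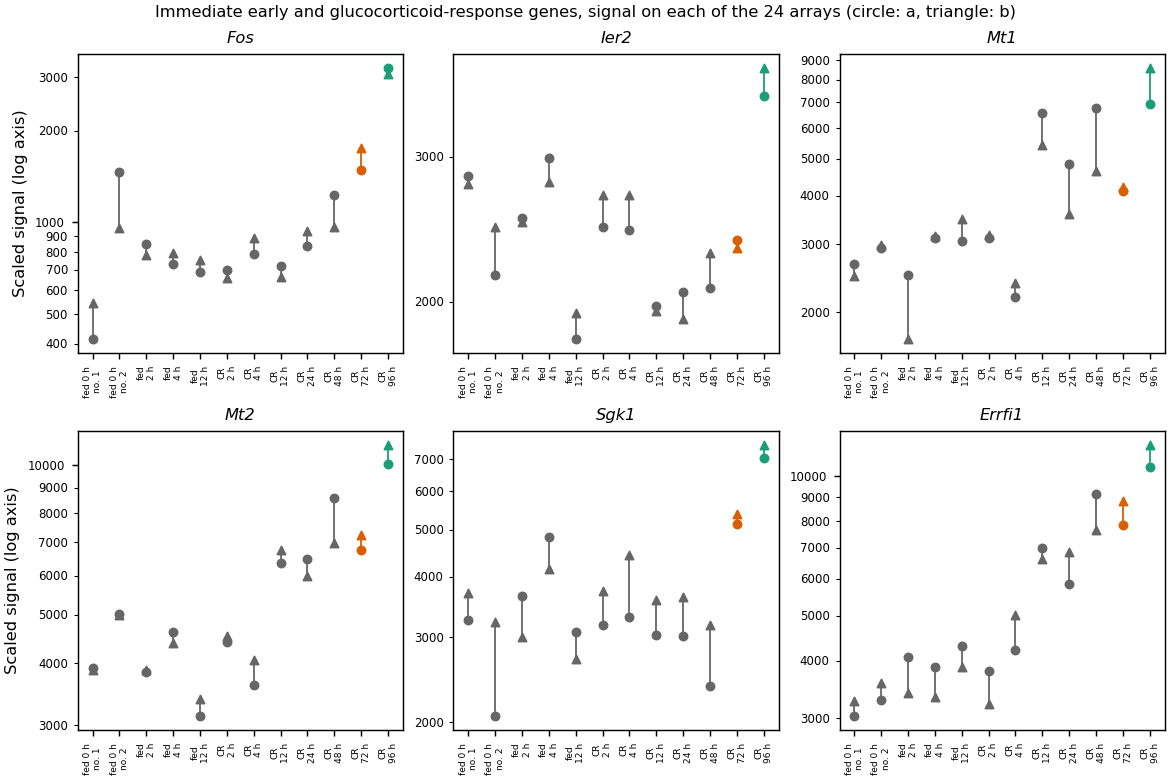
Scaled signal of Fos, Ier2, Mt1, Mt2, Sgk1 and Errfi1 on each of the 24 arrays, on log axes that do not start at 0, with the 12 groups on the x axis, array a as a circle and array b as a triangle, 72 h in orange and 96 h in green. In each panel both green points lie above every other array, as for Fos at 3222 and 3078, but 0 of these genes passed the test of 96 h against 72 h.

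Matrix genes were more often below than above at 96 h, also without a call. Of 45 extracellular matrix and elastic fibre genes 14 had both 96 h arrays below and 2 above, with a median log2 difference of -0.17 that ran from -0.33 to 0.04 over the single pairs. Without array a at 96 h it was -0.02, without array b -0.29. The 28 matrix proteases and their inhibitors ran the other way, with 10 above and 1 below in both arrays (median 0.07, 0.07 to 0.12 in the single pairs). Serpina3n, a serine protease inhibitor, was at 2905 and 3257 against 4097 and 3950. Col3a1, the chain of type III collagen, was at 952 and 1066 against 648 and 746 (log2 -0.54 ± 0.13 SE, adjusted p = 0.323), the lowest of all groups. The 2 dimmer probes of Col3a1 gave log2 differences of 0.44 and -0.34. Col5a2, of type V collagen, was at 970 and 1070 against 587 and 630, and the laminin chain Lama4 at 1463 and 1573 against 1063 and 1210. Col1a1 was at 1802 and 2668 against 1038 and 2309, so the main collagen gene overlapped. Mfap2, a microfibril protein, went the other way, at 2144 and 2704 against 2799 and 2837. Among 35 genes of alveologenesis and retinoid signalling, 10 were below and 1 above in both arrays. Their median was -0.10, with -0.24 to -0.08 over the alternatives, the lowest without array b at 96 h. Tcf21, a transcription factor of lung fibroblasts, was at 2142 and 1937 against 1601 and 1488, and Tgfb3 at 1797 and 1965 against 1442 and 1333.

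Of 31 endothelial genes 9 were below and 2 above in both arrays (summed signal 119283 and 135547 against 114704 and 130323). Their median was -0.08 but ran from -0.25 to 0.12 over the single pairs, and it was 0.02 without array a and -0.20 without array b at 96 h, so its sign rested on single arrays. Edn1, which encodes the vasoconstrictor endothelin-1, was at 1587 and 1780 against 1076 and 1307, and its 72 h arrays lay above all others. The transcription factor Sox7 was at 1342 and 1657 against 1073 and 1076. Smooth muscle markers summed to 35003 and 37177 against 35093 and 34698, with 2 of 14 above and 0 below in both arrays. In these tissue samples fewer cells of a type and less RNA per cell cannot be told apart, and the part of cell numbers in the values above was not tested.

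The defining markers of lung epithelium were present on all 4 arrays. Sftpc, of alveolar type II cells, was at 23976 and 34498 at 72 h and 38345 and 33839 at 96 h, and Scgb1a1, of airway club cells, at 27820 and 36309 against 37436 and 38651. The 13 alveolar type II genes had a median log2 difference of 0.07 and the 8 type I genes 0.02, with 3 above and 2 below, and 2 above and 1 below, in both arrays. Of 15 airway genes 6 were above and 1 below in both arrays (median 0.11; 0.04 without array a and 0.24 without array b at 96 h), led by the keratin Krt8 at 3599 and 3856 against 5710 and 5192 (log2 0.55 ± 0.13 SE, adjusted p = 0.264). Krt18, its partner in simple epithelia, was at 1734 and 1717 against 1987 and 2673. Cyp2f2, a club cell enzyme, was at 19076 and 23668 against 20707 and 21841, with groups that overlap.

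Neutrophil genes had the highest median of the lists with at least 6 measured genes, 0.33 over 8 genes, with 5 above and 0 below in both arrays and a summed signal of 6804 and 7351 against 9023 and 9492. S100a8, a calcium-binding protein abundant in neutrophils, was at 502 and 509 against 1421 and 949 (log2 1.20 ± 0.34 SE, adjusted p = 0.553). Its partner S100a9 was at 264 and 207 against 566 and 432. Elane, the neutrophil elastase, was at 291 and 313 against 314 and 308, with groups that overlap. Macrophage genes had a median of 0.05 (6 above, 2 below, of 21), B-cell genes 0.00 (4 and 2 of 14), T-cell genes 0.10 (0 and 1 of 6) and interferon-response genes -0.05 (1 and 5 of 23).

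For several large gene groups the value depended on which 96 h array was read. The median of 55 oxidative phosphorylation genes was 0.10 in the fit but -0.11 to 0.35 over the single pairs, that of 33 proteasome genes 0.12 but -0.09 to 0.34, and that of 22 ribosomal protein genes 0.03 but -0.18 to 0.20. Their summed signals at 96 h were 184992 and 146144, 93287 and 77378, and 300881 and 251558 on arrays a and b, while at 72 h those of oxidative phosphorylation were 158547 and 147352. Circadian clock genes behaved alike, at 0.14 in the fit and -0.23 to 0.38 over the pairs, and at -0.03 without array b at 96 h. Of 16 measured 4 were above and 2 below in both arrays and 0 passed. Nr1d2 was at 504 and 324 against 532 and 656, and Clock at 571 and 591 against 500 and 492. Fatty acid oxidation genes (median -0.02, 23 genes), cell cycle genes (-0.06, 27) and genes of the unfolded protein response (0.01, 21) lay near the median of all genes.

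**Figure D5:**
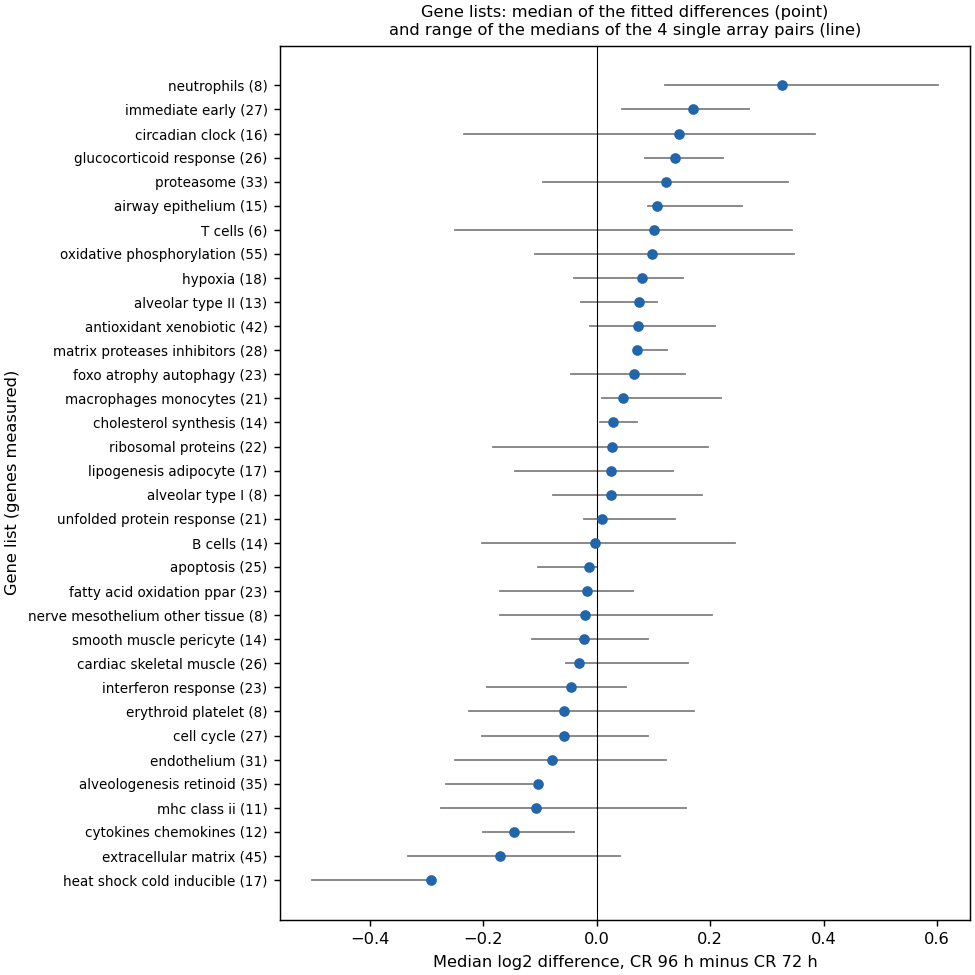
Median log2 difference, 96 h minus 72 h, of each gene list with at least 6 measured genes (point) and the lowest and highest of the medians over the 4 single pairs of a 96 h and a 72 h array (line), with the number of genes in brackets. The medians run from -0.29 for heat shock and cold-inducible genes to 0.33 for neutrophil genes, and many lines cross 0.

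The remaining genes with the smallest p and groups that do not overlap were of mixed function. Chfr, a ubiquitin ligase of a mitotic checkpoint, was at 796 and 799 against 1338 and 1596 (adjusted p = 0.122), and Tmem37 at 2057 and 2037 against 3072 and 3202 (adjusted p = 0.245). Lower were Ncbp2, a subunit of the nuclear cap-binding complex, at 700 and 584 against 358 and 327 (adjusted p = 0.377), and Nfya, a subunit of the CCAAT-binding factor NF-Y, at 725 and 832 against 487 and 454. Sox11, a developmental transcription factor, was at 1117 and 1203 against 730 and 405, a wide spread at 96 h. The last pair had an adjusted p of 0.422.

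The step from day 3 to day 4 was set against the earlier step from 24 h to 48 h, which shares its time of day and none of its arrays. Signs of RNA quality moved with the earlier step: the 3′ to 5′ ratio of Gapdh was 1.49 and 1.31 at 24 h and 1.95 and 2.15 at 48 h, and that of actin 2.77 and 1.80 against 3.81 and 2.69. Their part in the values below was not tested. The earlier step had 6 of 7440 probes called (0.0806%), 1 higher and 5 lower, and 749 at an unadjusted p under 0.05 (10.1%). The difference between the steps passed for 0 probes (0%; limma), with 517 at an unadjusted p under 0.05 (6.95%). Its smallest adjusted p, 0.0657, was shared by 6 probes, among them Cyp1a1, whose log2 difference was -3.10 in the later step and -1.07 in the earlier one (difference -2.03). Hsph1 had -0.99 and 0.47 (difference -1.46). Ddx6, an RNA helicase of mRNA decay, had a difference of -2.22, and Pheta1 and Acot9, an acyl-CoA thioesterase, had 2.06 and 1.37. Ddx6 and Pheta1 were among the genes called in the earlier step, with Atxn7l3b, Bik, Emcn and Igha, and were not called in the later one. Other Ddx6 probes had log2 differences of -0.31 and -0.51 in the later step. No gene was therefore shown to move in the later step alone. List medians of the earlier step were 0.36 for glucocorticoid-response, 0.15 for immediate early and 0.26 for neutrophil genes, so these lists were higher there too. Heat shock and cold-inducible genes had 0.07 and extracellular matrix genes -0.04 (-0.03 over all genes). Differences between the steps in these medians were not tested. Both counts of calls, for the earlier step and for the difference between the steps, turned on single arrays. The difference between the steps passed for 11 probes without array b at 24 h, 9 without array b at 48 h, 5 without array b at 96 h, 3 without array a at 96 h, and 2 without array a at 24 h or array b at 72 h. The earlier step had 3 calls without array a and 39 without array b at 24 h, and 16 and 14 without arrays a and b at 48 h.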

How the data were processed

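Lung RNA was hybridized to Affymetrix MG-U74Av2 arrays. The deposited values were linear intensities, 1 per probe set. Tested on the values, they shared a trimmed mean of 800.4 to 800.5 (2% left out at each end), so the authors had scaled each array, with software not given in the sources used here. Array medians were set to their common median (factors 0.920 to 1.05), signals under 80.37 (25th percentile) were raised to it, and log2 was taken. Of 12488 probe sets, 66 controls were left out, and 7440 of 12422 reached their array's median on at least 2 arrays. Of the 12422, 10833 had 1 gene symbol, 396 several and 1193 none (updated through GRCm38.p6 RefSeq identifiers for 10817), and the tested ones covered 5706 genes. No depth exists for arrays: their number limits the precision.

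Means of 12 groups, with fed 0 h numbers 1 and 2 apart, entered 1 linear model of the 24 arrays (R 4.3.3; limma 3.58.1, with lmFit, a trended eBayes and 12 residual degrees of freedom), two-sided, with Benjamini-Hochberg adjustment over 7440 probes. Folds are ratios of geometric means of floored signals. Printed signals are scaled and not floored. Levels of different probes are not comparable. The members, lists and tests were chosen with earlier results of these data known. The genes named were those called, filled up to 10 a direction by smallest p with groups that do not overlap, up to 4 members a list by smallest p, the clock and glucocorticoid lists, and the smallest p of the difference between steps. Further list members were chosen after their values were seen. The limma fit and its calls for 96 h against 72 h were tested on simulated data, and the other steps were not. Alternatives covered scaling, floor, filter, variance model, weights, groups in the fit, the letter as replicate block and each array left out. 1 array of another platform, whose title and description disagree, was not used.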

Additional observations from a re-analysis of the deposited data

How the results depend on the processing

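Of 2 probes called between 72 h and 96 h, 2 were called with signals as deposited, either other floor, the filter on the 4 arrays, array weights, or the 12 arrays of the lower signal range (highest deposited signal under 60000), an alternative chosen after seeing the data. Quantile normalization, no intensity trend, robust variance, the fed 0 h numbers pooled, and the 14 CR arrays alone each gave 1, Cyp1a1, and lost Zfp787. With no filter there were 5 (Chordc1, Cyp1a1, Ier2, Mt2 and Tsr3), and with the 4 arrays alone 0 (limma; 298 at an unadjusted p under 0.05). Leaving out 1 array gave 1 to 4. With the letter as a replicate block 1 was called, 0 for the difference between the steps and 17 for the earlier step. No label says that a letter marks a shared animal or day. The deviations of arrays a from their group means correlated at -0.19 to 0.12 over 66 pairs of groups, with 0.118 for 72 h and 96 h, 1 of 2 pairs over 0.1.

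For the difference between the steps, 0 in the report, no filter gave 8 and the 14 CR arrays 1, and leaving out 1 array gave 0 to 11. The 6 probes of the earlier step became 18 with signals as deposited, 14 with either other floor, 25 with no filter, 12 with the filter on the 4 arrays, 3 with no trend, 0 with array weights (529 at an unadjusted p under 0.05), 1 with the fed numbers pooled and 2 with the 14 CR arrays. Leaving out 1 array gave 3 to 39. Gstm2 changed sign without array a at 72 h (-0.15) and had 1.93 without array b. Of the 12 list medians followed over the alternatives, 8 values moved by more than the spread between array pairs, 7 of them with an array left out. The median of the endothelial list ran from -0.20 to 0.02, that of the clock list from -0.03 to 0.27 and that of alveologenesis from -0.24 to -0.08. The cause was not tested. Each group has 2 arrays, and a test with 1 array left assumes that it varies like the other groups.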

Other observations

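The 72 h and 96 h groups differed in how often they held the extremes of the series. The 96 h arrays both lay above the 22 others for 137 of 7440 probes and below them for 32, and the 72 h arrays for 46 and 23. The numbers were 5 to 79 above and 14 to 122 below in the other groups apart from fed 0 h, where number 1 had 1071 and 737 and number 2 had 221 and 125. Besides Cyp1a1 and Tiparp, the 72 h arrays were highest for Edn1, for Ece1, the enzyme that releases active endothelin from its precursor, and for Cxcl5, a neutrophil chemokine. Ece1 had an adjusted p of 0.553 against 96 h. The lowest positions at 96 h were held by Col3a1 and Lum, which encodes a collagen-binding proteoglycan, Gbp2, an interferon-induced GTPase, Ccr2, a monocyte chemokine receptor, and Myl4, a muscle myosin light chain. All of these were named after their values were seen, and 0 of them but Cyp1a1 passed the test between the days.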
